A study of Mus musculus with 12 samples.

Results

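The genes described here are Akap13, Dock8, Macf1 and Plcl1, which act in signalling or in the cytoskeleton, and the data are the FoxP3 ChIP-seq peaks in and around them. The 4 windows were selected on the number of peaks seen in these same lists, so the density of peaks in them is a description and not a finding. A peak was counted when its summit lay inside chromosome 7 from 82500000 to 83000000 (Akap13), chromosome 19 from 25000000 to 25300000 (Dock8), chromosome 4 from 123000000 to 123400000 (Macf1) or chromosome 1 from 55400000 to 55900000 (Plcl1), all in the mouse build mm9. Joined over the libraries, the peaks formed 357 regions, out of 24765 in the whole genome, with 78 in the Akap13 window, 124 in the Dock8 window, 149 in the Macf1 window and 6 in the Plcl1 window. The last number goes against the idea that all 4 genes are densely bound. In the replicate 1 lists the Plcl1 window held 1.20 peaks per 100 kb in both A384T and WT, where the median 500 kb bin with any peak held 1 per 100 kb, and 1036 A384T bins and 1062 WT bins were denser.

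FoxP3 is the forkhead transcription factor that specifies regulatory T (Treg) cells, a lymphocyte class that restrains other immune cells. It binds DNA through its forkhead domain, largely at sites that are already open in T cells, and A384T replaces an alanine in that domain. In humans, loss of FoxP3 function causes the autoimmune syndrome IPEX. Of the genes, Akap13 (AKAP-Lbc) encodes a scaffold for protein kinase A that is also an exchange factor for the GTPase RhoA. Dock8 encodes an exchange factor for the GTPase Cdc42, and its loss in humans causes a combined immunodeficiency in which migrating T cells break apart. Macf1 encodes a spectraplakin, a giant protein that links actin filaments to microtubules. Plcl1 (PRIP-1) encodes a relative of phospholipase C that binds inositol trisphosphate but has no lipase activity.

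The groups were Treg cells from mice with FoxP3 A384T and from mice with wild-type FoxP3 (WT), each with 3 ChIP libraries, and both lines carried a human CD2 (hCD2) reporter tied to FoxP3. All animals were of the C57BL/6J strain, ages are not given in the labels, and the untreated cells came from lymph nodes and spleen by magnetic sorting for CD4 and hCD2. The antibody was an in-house rabbit polyclonal against FoxP3, and fixation took 30 min in 1% formaldehyde. The comparison asks where the substituted protein is found relative to the wild-type protein. The labels do not say whether replicates came from separate animals, so the spread that the p-values measure is that between these 6 libraries and may be technical. Whether a locus was bound in fewer cells or less often in each cell cannot be told apart in such material.

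The lists were uneven, and every result below has to be read against that. After removal of duplicate tags the libraries held 18255500 to 24493840 tags in A384T and 17520951 to 25386770 in WT. A384T replicates 1, 2 and 3 had 18147, 6657 and 2050 peaks, and WT replicates 1, 2 and 3 had 20723, 1746 and 3905, all past the authors' q-value cutoff of 1e-10. The replicate 1 libraries had 51 bp tags and the others 49 bp. A window without a peak had none past the cutoff, and weaker binding there cannot be seen in the lists. No mm9 gene annotation was used, so peaks are not assigned to exons, introns or promoters, and Treg markers could not be placed to check the sort. In RefSeq's gene order (GRCm38.p6) the nearest protein-coding genes are Sv2b and Klhl25 beside Akap13, Cbwd1 and Kank1 beside Dock8, Bmp8a and Ndufs5 beside Macf1, and Boll and Hsfy2 beside Plcl1; which of them the windows include was not determined.

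The Akap13 window carried FoxP3 peaks in every library, and its median peak stood above the middle of each list. It held 43, 30 and 13 peaks in A384T replicates 1, 2 and 3, and 78, 19 and 31 peaks in WT replicates 1, 2 and 3. Relative to list length this was 2.37, 4.51 and 6.34 per 1000 listed peaks in A384T, against 3.76, 10.9 and 7.94 in WT. The replicate 1 lists, the longest, gave the lowest rate in each genotype, and the genotypes overlapped; 5.34% of 2996 bins had A384T above WT on this measure without overlap, and 1.47% WT above A384T. The peaks were spread widely: the shortest stretch with 90% of the summits measured 424 kb in A384T replicate 1 and 416 kb in WT replicate 1. Their median place in their own list, as a percentile of -log10 q, was 61.6, 74.3 and 52.1 in A384T and 65.2, 51.5 and 69.8 in WT, all above the middle of the list. In A384T replicate 3 and WT replicate 2 it was close to the middle, with 6 of 13 and 9 of 19 peaks below it.

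Cut to equal length, the lists held fewer Akap13 peaks in A384T than in WT. Each list was reduced to its 1746 strongest peaks by -log10 q, the length of the shortest list. The window then held 8, 15 and 13 peaks in A384T, against 17, 19 and 19 in WT. Every A384T library lay below every WT library. The means were 12.0 ± 3.61 in A384T and 18.3 ± 1.15 in WT (SD, n = 3 each), a difference of -6.33 peaks (p = 0.1 in a two-sided exact permutation test, which cannot go lower with 3 against 3). With Benjamini-Hochberg adjustment over the 1584 bins of 500 kb tested in the same way, no bin had an adjusted p under 1, and none had an unadjusted p under 0.05. WT lay above A384T without overlap in 3.47% of those bins and A384T above WT in 5.30%. Most bins are sparse, and among the 38 bins with a mean of at least 5 peaks the shares were 23.7% (9 bins, the Akap13 window among them) for WT above A384T and 0% for the reverse. The separation at Akap13 was thus shared with other densely bound bins. The test above ignored the pairing of same-numbered replicates. With these numbers as blocks the Akap13 difference had an exact permutation p of 0.25, the smallest 3 pairs allow. In the 49 bp libraries alone the difference was -5.0 (exact permutation p = 0.333, the smallest that 2 against 2 allows), while each genotype had a single library of 51 bp tags, with 8 peaks in A384T and 17 in WT.

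**Figure D1:**
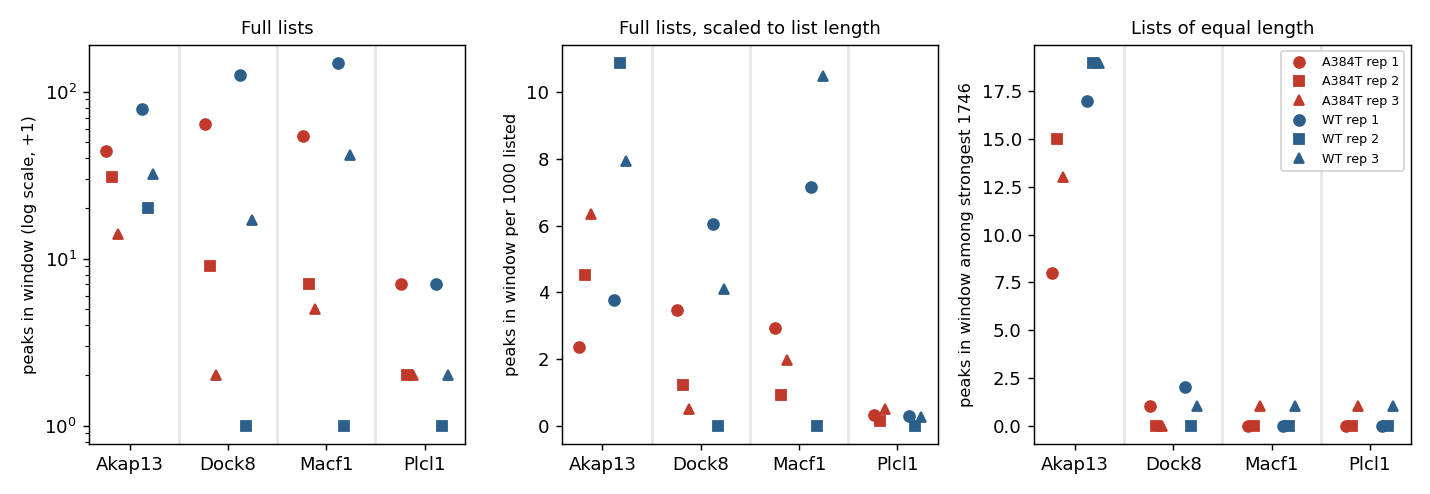
Peaks per window in each library (A384T red, WT blue; circle, square and triangle for replicates 1, 2 and 3): number in the full list plus 1 on a log axis (left), number per 1000 listed peaks (middle) and number among the 1746 strongest peaks (right). At equal length the A384T values of 8 to 15 in the Akap13 window lie below the WT values of 17 to 19, and the other windows hold at most 2 peaks in any library.

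The core of the Akap13 window was found with both proteins. Of its 78 regions, 10 (12.8%) had a peak in all 6 libraries, where 3.88% of all regions did. Another 8 were seen in 5 libraries. The window was chosen on its peaks in these same lists, so the higher share is a description and not a finding. The fold enrichment over control, the authors' own value for each peak, is used here only to describe peaks within a list. Best-ranked was chromosome 7 from 82801117 to 82802072, with folds of 28.2, 37.3 and 13.3 in A384T and 34.2, 15 and 13.3 in WT. It stood at the 95.9, 97.9 and 77.9 percentiles of the A384T lists and at the 97.9, 79.0 and 87.5 percentiles of the WT lists, so it was a strong peak in every list. Next came chromosome 7 from 82745131 to 82746290, with folds of 25.2, 28.8 and 11.3 in A384T and 42.8, 18 and 31.3 in WT. After it came chromosome 7 from 82519303 to 82519895, near the left edge of the window, with folds of 32.8, 23.4 and 15.6 in A384T and 49.7, 13.4 and 19.2 in WT. Over the 10 regions the median fold was 25.9, 21.3 and 11.7 in A384T and 38.4, 9.68 and 18.4 in WT; these values share no scale between libraries and are not compared. Leaving out A384T replicate 3, the shortest A384T list, gave 17 regions in all the libraries left.

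Ranked by -log10 q among the 962 regions present in all 6 libraries, 2 of the 10 Akap13 regions stood higher in every WT library than in any A384T library, and none stood higher in every A384T library. Over all 962 regions the shares were 13.3% for WT higher and 11.5% for A384T higher, so 2 of 10 is not a result about Akap13. The larger difference was at chromosome 7 from 82846623 to 82847803, with rank percentiles of 7.48, 31.6 and 26.0 in A384T and 32.1, 41.1 and 74.3 in WT. There the highest A384T value and the lowest WT value, 31.6 and 32.1, nearly touch. The other, from 82745131 to 82746290, had rank percentiles of 37.6, 69.0 and 48.8 in A384T and 73.6, 73.6 and 88.4 in WT. Neither was apart when peaks were ranked by fold or by percentile in the full list, where 0 of the 10 regions were. Without WT replicate 2, 15 regions of the 4 windows were shared, not all of them at Akap13. Of these 15, 8 were apart, all with WT higher. Without A384T replicate 1, 2 of 10 were apart with A384T higher and 2 with WT higher, so the absence of regions higher in A384T rested on that library. Ranks come apart more easily with 1 library fewer. The shares over all shared regions were not computed for these settings, so their counts cannot be read as results about Akap13.

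**Figure D2:**
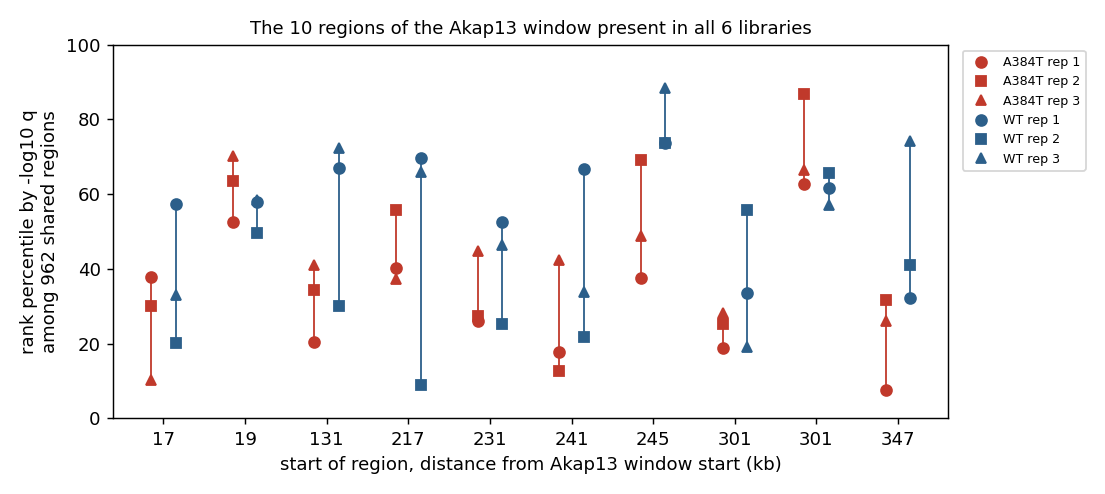
Rank percentile by -log10 q among the 962 regions present in all 6 libraries, for the 10 such regions of the Akap13 window in order of position (A384T red and left, WT blue and right; symbols are replicates, lines span the 3 libraries). The intervals are apart, with WT higher, at the regions starting 245 and 347 kb into the window, and overlap at the other 8.

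The Dock8 window was the densest of the 4, and it was so in the longest lists. It held 63, 8 and 1 peaks in A384T replicates 1, 2 and 3, and 125, 0 and 16 peaks in WT replicates 1, 2 and 3. In both genotypes replicate 1 was far above the others, and WT replicate 2, the shortest list, had none. At 21.0 peaks per 100 kb in A384T replicate 1 and 41.7 in WT replicate 1, the window exceeded every 500 kb bin of these lists, of which the densest held 16.4 and 29.8 per 100 kb. The window is narrower than a bin, which favours it in this comparison. The peaks formed a block: the shortest stretch with 90% of the summits ran from 25155556 to 25262939 in A384T replicate 1 (57 peaks in 107 kb) and from 25155074 to 25265718 in WT replicate 1 (113 peaks in 111 kb). The block had about the same edges in both. In WT replicate 3 the stretch started further left, from 25132539 to 25258835 (15 peaks in 126 kb). Neighbouring summits lay a median of 1072 bp apart in A384T replicate 1 and 790 bp apart in WT replicate 1. Counted in steps of 25 kb, the block was fullest between 225 and 250 kb from the window start in A384T replicates 1 and 2, with 23 and 3 peaks, and in WT replicate 3, with 8. WT replicate 1 had 27 peaks there and was fullest between 200 and 225 kb, with 29 peaks, where A384T replicate 1 had 10.

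Most Dock8 peaks were weak for their lists. The median percentile of -log10 q was 15.5, 7.93 and 5.0 in A384T replicates 1, 2 and 3 and 32.9 and 21.9 in WT replicates 1 and 3. Of the peaks in the replicate 1 lists, 60 of 63 in A384T and 96 of 125 in WT were in the lower part of their list, below its median. At equal list length only 1, 0 and 0 peaks remained in A384T and 2, 0 and 1 in WT, means of 0.333 ± 0.577 and 1.00 ± 1.00 (SD, n = 3 each). The difference of -0.667 was within the spread between libraries (two-sided exact permutation test, p = 0.7). Per 1000 listed peaks of the full lists the window held 3.47, 1.20 and 0.488 in A384T and 6.03, 0 and 4.10 in WT, so the genotypes overlapped.

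No Dock8 region was found in more than 4 libraries. Of the 3 best-ranked of those in 4, 2 lay to the left of the block of the replicate 1 lists. First was chromosome 19 from 25132377 to 25132663, with folds of 38.5 and 16.1 in A384T replicates 1 and 2 and of 37.5 and 14.2 in WT replicates 1 and 3. It held the highest fold of the window in all 4 of these libraries, at the 94.2 and 61.8 percentiles in A384T and the 97.7 and 61.3 percentiles in WT. Chromosome 19 from 25126789 to 25127342 had folds of 7.07 and 7.02 in A384T replicates 1 and 2 and of 21.2 and 8.72 in WT replicates 1 and 3. Inside the block, chromosome 19 from 25224127 to 25224914 had folds of 16.6 and 8.81 in A384T replicates 1 and 3 and of 23.3 and 8.68 in WT replicates 1 and 3. Only this region had a peak of A384T replicate 3, the 1 peak that library had in the window.

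**Figure D3:**
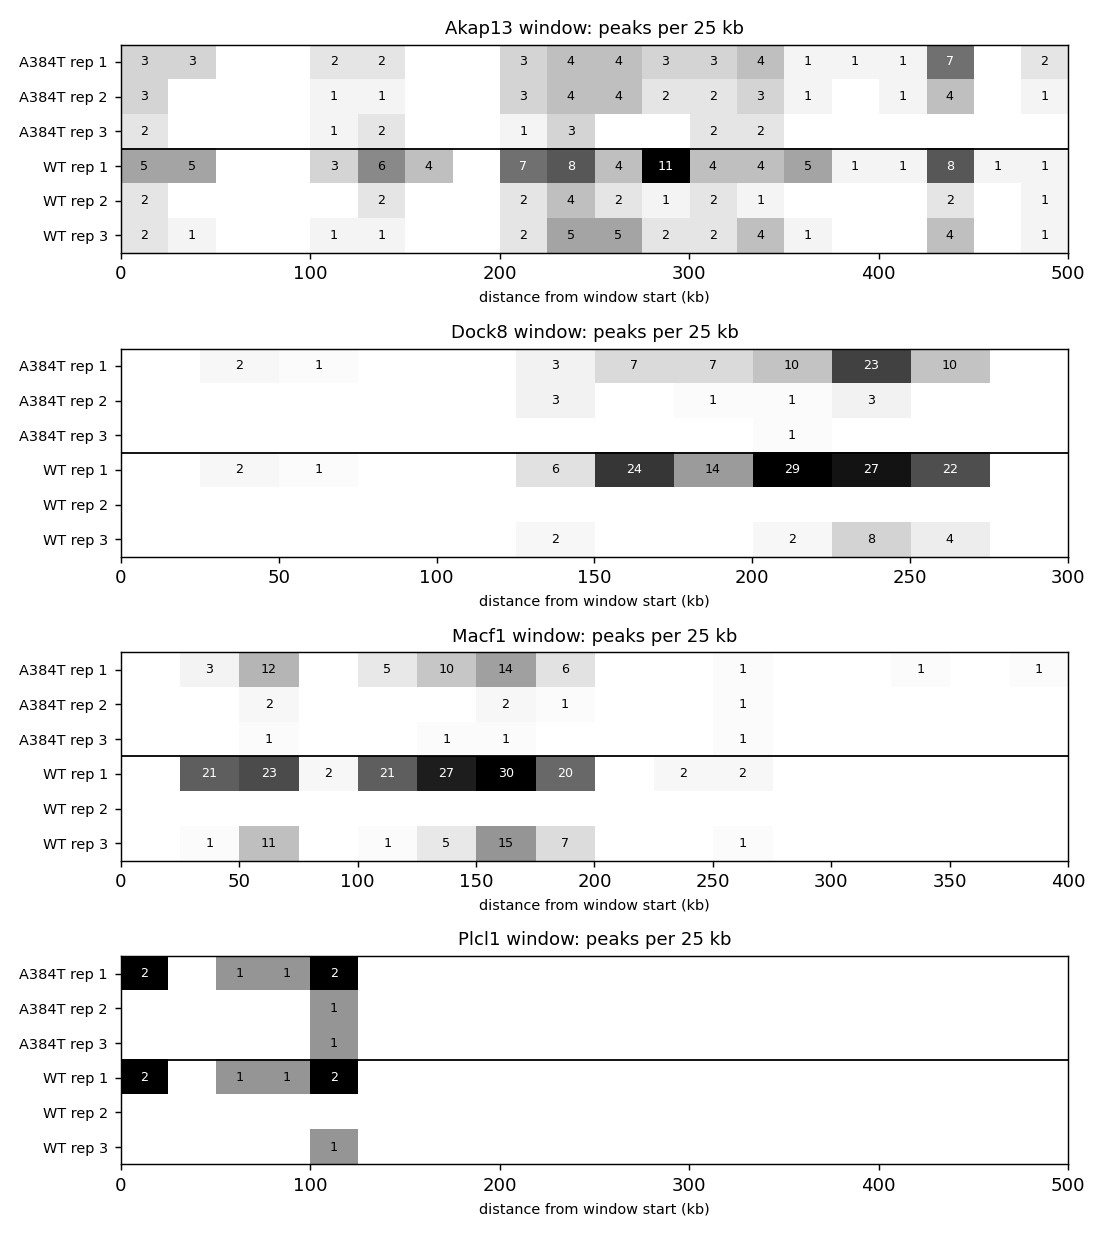
Number of peaks per 25 kb along each window, by library (A384T above the line, WT below; darker means more, with the scale set for each window and the number printed in the cell). Peaks form blocks 150 to 275 kb into the Dock8 window and 25 to 200 kb into the Macf1 window, are spread over the Akap13 window, and stop before 125 kb in the Plcl1 window.

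The Macf1 window was second in density in the replicate 1 lists, with 13.3 peaks per 100 kb in A384T and 37.0 in WT, and the densest of the 4 in WT replicate 3, with 10.3. A384T replicate 1 had fewer peaks here than WT replicate 1. That gap was in view when the window was chosen, since regions recurrent in WT had been seen to gather here, so no test of it is taken as support. The window held 53, 6 and 4 peaks in A384T replicates 1, 2 and 3, and 148, 0 and 41 peaks in WT replicates 1, 2 and 3. WT replicates 1 and 3 were high, A384T replicates 2 and 3 and WT replicate 2 low, and the genotypes overlapped because WT replicate 2 had none. Per 1000 listed peaks the values were 2.92, 0.901 and 1.95 in A384T, with a mean of 1.92 ± 1.0, against 7.14, 0 and 10.5 in WT, with a mean of 5.88 ± 5.36 (SD, n = 3 each). As at Dock8 the peaks formed a block with similar edges in the replicate 1 lists. The shortest stretch with 90% of the summits ran from 123049142 to 123183693 in A384T replicate 1 (48 peaks in 135 kb), and from 123041750 to 123184973 in WT replicate 1 (134 peaks in 143 kb) or 123052393 to 123181994 in WT replicate 3 (37 peaks in 130 kb). A gap divided the block: between 75 and 100 kb from the window start A384T replicate 1 had 0 peaks, WT replicate 1 had 2 and WT replicate 3 had 0. In the 25 kb before the gap they had 12, 23 and 11 peaks, and in the 25 kb after it 5, 21 and 1.

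The Macf1 peaks were weak for their lists too, with median percentiles of 21.7, 13.2 and 6.90 in A384T replicates 1, 2 and 3 and of 34.4 and 14.5 in WT replicates 1 and 3. At equal list length the window held 0, 0 and 1 peaks in A384T and 0, 0 and 1 in WT, so at that depth no difference could be measured. With the lists cut by fold in place of -log10 q the difference was -2.67 peaks (two-sided exact permutation test, p = 0.7). With lists paired between the genotypes by order of length, and the longer of each pair cut to the shorter, A384T and WT had 53 and 120 peaks at 18147 peaks, 1 and 41 at 3905, and 1 and 0 at 1746. Dock8 gave 63 and 98, 1 and 16, and 0 and 0 at these lengths, and Akap13 gave 43 and 67, 26 and 31, and 13 and 19. Only Akap13 had fewer A384T peaks in all 3 pairs, and the other windows could not, since WT replicate 2 had no peak in them. Of the 500 kb bins, 3.36% had fewer A384T peaks in all 3 pairs and 5.31% had more. Most bins are sparse, and the shares among dense bins were not computed for these pairs. At Macf1 and Dock8 the gap was thus seen at 18147 and 3905 peaks and not at 1746, where WT replicate 2 had none. Whether it followed the length of the lists was not tested. At 18147 peaks the ratio of A384T to WT peaks was 0.442 at Macf1, 0.643 at Dock8 and 0.642 at Akap13. The 112 bins with a mean of at least 20 peaks in these lists had a median ratio of 0.740, from 0.255 to 2.1, and 8 of them lay below Macf1.

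Of the 149 Macf1 regions, 94 were seen in 1 library, 30 in 2, 19 in 3, 3 in 4 and 3 in 5. Best-ranked was chromosome 4 from 123254713 to 123255125, to the right of the block, with folds of 15.8, 12.2 and 9.97 in A384T and of 31.6 and 14.6 in WT replicates 1 and 3. Inside the block, chromosome 4 from 123166241 to 123167187 had folds of 10.6, 9.75 and 8.04 in A384T and of 20.6 and 13.0 in WT replicates 1 and 3. The remaining one, from 123055434 to 123056423, had folds of 11.1, 9.0 and 9.05 in A384T and of 13.4 and 11.8 in WT replicates 1 and 3. All 3 lacked a peak in WT replicate 2 alone.

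Most regions of the windows were seen in 1 library. That held for 202 of the 357 (56.6%), where 42.4% of all regions were, and 142 (39.8%) were seen in both genotypes, where 56.0% of all were. Of the 202 single-library regions, 195 came from WT replicate 1, the longest list, where 6346 of 10490 did over all regions. Regions seen only in WT libraries made up 58.8% of those in the windows and 26.8% of all. Those seen only in A384T libraries made up 1.40% and 17.2%. The windows were chosen on these lists, so these shares are a description, and their dependence on list length was not tested. By genotype, 0 had a peak in at least 2 A384T libraries and in no WT library, and 13 had a peak in at least 2 WT libraries and in no A384T library. Over all 24765 regions these classes held 0.763% and 0.872%. The 13 made up 3.64% of the members, with 10 at Macf1, 2 at Dock8, 1 at Akap13 and 0 at Plcl1. Regions recurrent in WT were in view when the Macf1 window was chosen. That their share exceeds that of all regions is therefore a description and not a finding. All 13 came from WT replicates 1 and 3: the count dropped to 0 when either was left out, and leaving out A384T replicate 1 gave 41. The count of 0 for A384T became 7 when WT replicate 1 was left out. The shares of all regions in these classes were not computed with a library left out. None had a peak in WT replicate 2, and 0 regions of the windows separated the genotypes fully; all 3 A384T against no WT library held for 0.186% of all regions, and all 3 WT against no A384T library for 0.0121%. The best-ranked of the 13 at Macf1 was chromosome 4 from 123181458 to 123182291, with folds of 21.2 and 9.48 in WT replicates 1 and 3, followed by 123164190 to 123164814 with 9.97 and 9.86. At Dock8 the pair was chromosome 19 from 25228485 to 25228921 (folds 8.97 and 8.68) and from 25217260 to 25217691 (folds 9.97 and 9.07), and at Akap13 the region was chromosome 7 from 82757886 to 82758600 (folds 17.8 and 10.3). In WT replicate 3 the 10 Macf1 regions stood at the 2.33 to 19.1 percentiles, close to the cutoff.

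Where A384T replicate 1 had peaks in the blocks, WT replicate 1 nearly always had them too. At Dock8, 54 of the 54 regions of A384T replicate 1 (100%) had a WT replicate 1 peak, and these made up 43.5% of the 124 regions of WT replicate 1. At Macf1 45 of 49 (91.8%) did, or 31.5% of 143, at Akap13 36 of 37 (97.3%), or 46.8% of 77, and at Plcl1 6 of 6, or 100% of 6. Over the genome the shares were 76.3% of the A384T replicate 1 regions and 66.4% of the WT replicate 1 regions. These are not like for like, since peaks overlap more easily where they are dense. Neighbouring summits of WT replicate 1 lay a median of 790 bp apart at Dock8 and 690 bp at Macf1, against 12828 bp over the whole list. The overlap that density alone would give was not computed. Shared regions were the stronger ones of WT replicate 1, with median percentiles of 48.6 at Dock8, 52.1 at Macf1 and 91.1 at Akap13, where regions not in A384T replicate 1 had 21.6, 24.2 and 40.4. Summits of shared regions lay a median of 51 bp apart at Dock8, 29 bp at Macf1, 16 bp at Akap13 and 22 bp over the genome. The Spearman correlation of pileup between A384T replicate 1 and WT replicate 1 was 0.884 over the 36 shared Akap13 regions, 0.682 over 45 at Macf1 and 0.313 over 54 at Dock8. Over 13567 regions of the genome it was 0.705. Each value compares 1 library with 1 other.

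**Figure D4:**
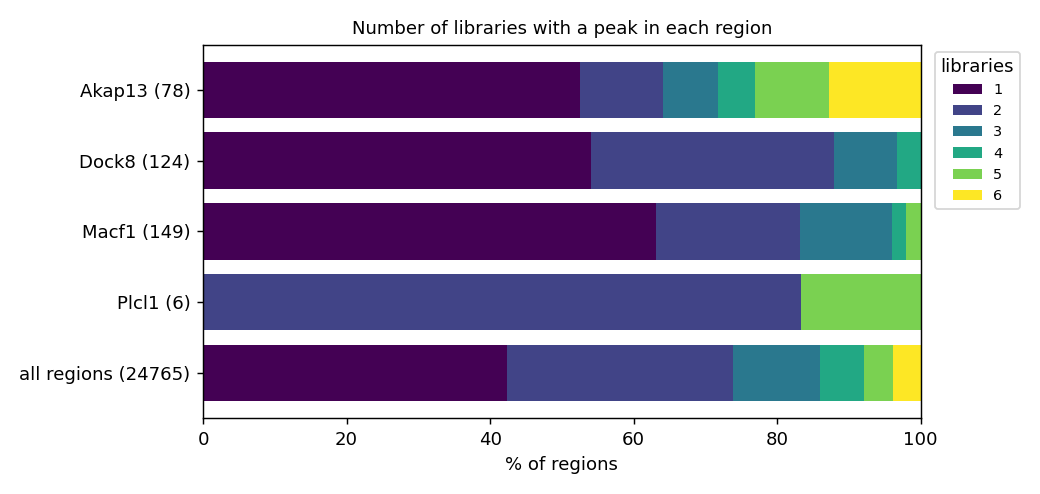
Share of regions with a peak in 1 to 6 libraries, for each window and for all 24765 regions (number of regions in parentheses). Akap13 has the largest share in all 6 libraries, 12.8% against 3.88% of all regions, and Dock8, Macf1 and Plcl1 have none. The windows were chosen on these same lists, so the shares are a description.

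The Plcl1 window held 6, 1 and 1 peaks in A384T replicates 1, 2 and 3, and 6, 0 and 1 in WT replicates 1, 2 and 3. The replicate 1 lists named the same 6 regions, the last of which started 104 kb from the left edge of the window. Of these only chromosome 1 from 55503599 to 55504051 recurred, with folds of 22.5, 7.58 and 11.8 in A384T and of 23.9 and 14.0 in WT replicates 1 and 3. Its percentiles were 77.1, 26.8 and 40.4 in A384T and 82.7 and 63.4 in WT. The other 5 had folds of 7.75 to 14.9 in A384T replicate 1 and of 6.94 to 19.5 in WT replicate 1. At equal list length the window held 0, 0 and 1 peaks in A384T and 0, 0 and 1 in WT, and no difference between the genotypes could be measured.

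The blocks at Dock8 and Macf1 differed from Akap13 in the background under their peaks. The measure called control level here was derived from the deposited pileup and fold of each peak as (pileup + 1) / fold. Its scale need not be that of the background itself. Its lowest value in a list marks the least background the peak caller used. At Dock8, 50.8, 50 and 100% of the peaks of A384T replicates 1, 2 and 3 lay within 1% of that lowest value, and 36.8 and 81.3% in WT replicates 1 and 3. At Macf1 the shares were 49.1, 83.3 and 50% in A384T and 56.8 and 65.9% in WT replicates 1 and 3. At Akap13 they were 14.0, 10 and 0% in A384T and 17.9, 5.26 and 22.6% in WT, and at Plcl1 0% in every library with a peak. The whole lists had 6.55, 10.4 and 9.12% in A384T and 10.6, 10.5 and 18.1% in WT, so in every library with a peak there Dock8 and Macf1 lay above the whole list. Pileups were low as well: in the replicate 1 lists the median was 28.0 at Dock8 and 28.0 at Macf1 in A384T, against 33.0 and 32.0 in WT. All peaks of these lists had medians of 51.0 in A384T and 48.0 in WT, and the Akap13 peaks of 51.0 and 46.0. The peaks of the whole lists thus had higher pileups, and peaks elsewhere with pileups like those of the blocks were not compared. Whether the share at the lowest control level is particular to these windows or common to weak peaks was not tested. The part of the low control level in the number of peaks called was not tested either.

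**Figure D5:**
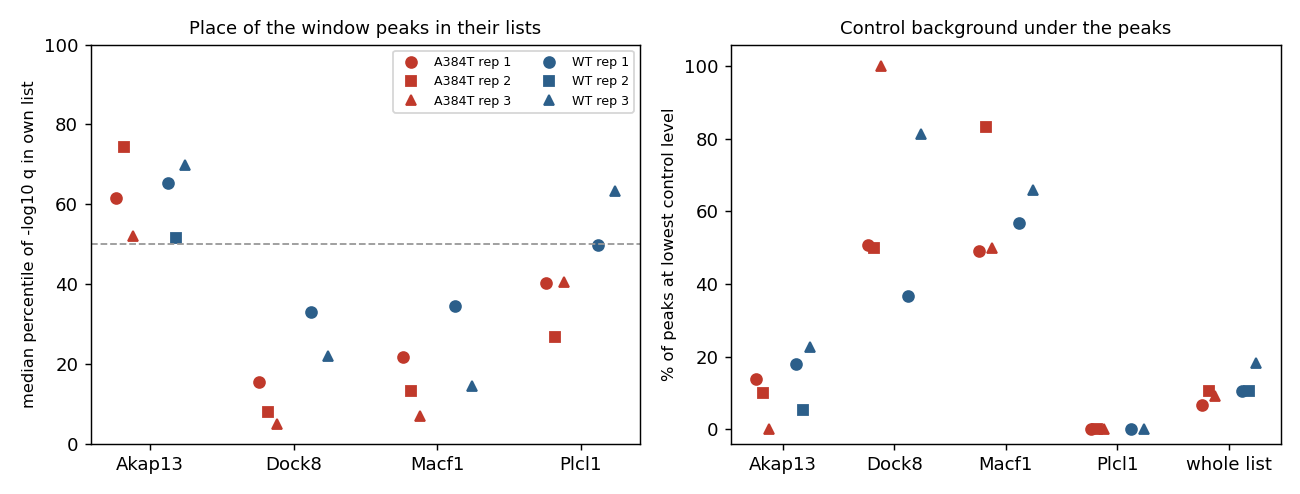
Left, median percentile of -log10 q of the peaks of each window in their own list, with a dashed line at the middle of the list; right, percent of peaks within 1% of the lowest control level of the list, for the windows and for whole lists (A384T red, WT blue; symbols are replicates; libraries without a peak are left out). Dock8 and Macf1 peaks stand at the 5.0 to 34.4 percentiles, and 36.8 to 100% of them are at the lowest control level, against 6.55 to 18.1% of whole lists.

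Inside the windows, libraries of the same genotype did not share peaks more than the test could resolve. At equal list length the Jaccard index (shared over combined regions) averaged 45.8% over the 3 A384T pairs (37.5 to 62.5%), 62.9% over the 3 WT pairs (56.0 to 76.2%) and 47.2% over the 9 pairs between genotypes (23.8 to 60.0%). Within-genotype pairs exceeded the others by 7.18 points (one-sided exact permutation test over the 10 splits into 3 and 3, p = 0.2). The difference was -7.26 points in the full lists, -0.455 without WT replicate 2 and -0.0702 without WT replicate 3. The lowest values all involved A384T replicate 1, and nearly all regions behind these indices lie at Akap13, which held most of the strong peaks.

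Other bins of 500 kb had profiles like those of the windows, compared over the 6 libraries by the Euclidean distance between peaks per 1000 listed. Nearest to Akap13 was chromosome 9 from 32500001 to 33000000, at a distance of 1.09, with 40, 29 and 13 peaks in A384T and 72, 19 and 27 in WT; then followed bins on chromosome 6 starting at 99000001 (3.72) and on chromosome 8 starting at 84000001 (4.33). Nearest to Dock8 was the bin on chromosome 12 starting at 52500001 (3.54), before those on chromosome 1 starting at 80500001 (4.05) and 164500001 (4.28). For Macf1 the distances were longer: the nearest was chromosome 2 from 79000001 to 79500000, at 6.52, with 23, 10 and 1 peaks in A384T and 67, 4 and 25 in WT. Chromosome 1 from 155000001 to 155500000 (7.15) and from 139500001 to 140000000 (7.48) followed, both with 0 peaks in WT replicate 2. For the sparse Plcl1 window chromosome 17 from 88000001 to 88500000 had the same 6 counts, and bins on chromosomes 13 and 7, starting at 93000001 and 125500001, differed from it by 1 peak.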

How the data were processed

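FoxP3 ChIP-seq was analysed in 6 libraries, 3 A384T and 3 WT, and the 6 input libraries named in the labels entered only as the authors may have used them. Bowtie2, MACS2 and the build mm9 are named in the submitters' processing notes. Per the file headers, the authors called peaks on each library with MACS 2.1.0.20140616 against 1 control library at a q-value cutoff of 1e-10, keeping 1 tag per position. The deposited lists give the pileup (a signal value scaled by the caller), the -log10 p-value and q-value, and the fold enrichment (a ratio to local background). They share no scale between libraries.

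Peaks on the 21 standard chromosomes were kept, and peaks overlapping by 1 bp or more were joined into regions. Windows were compared by counts at equal list length, with two-sided exact permutation tests over 20 assignments, and the same was done for 500 kb bins. The smallest p is 0.1. Members, windows and lists were chosen with earlier results of these data known. Named regions were the 3 best by mean percentile among those in the most libraries, the 2 best of each recurrent genotype class, and the largest rank difference in each direction. Stretches holding 90% of summits, control levels, length-matched pairs, the dense-bin backgrounds and the pair with equal values were added after the data were seen. Same-numbered replicates deviated together over 1584 bins (correlations of 0.219, 0.155 and 0.263 for numbers 1, 2 and 3), so the numbers were taken as pairing the libraries and the test was repeated with them as blocks. The joining and bin test were tested on simulated lists. Sequences, motifs and other genes of these families, which need an mm9 genome or annotation, were not analysed here. Python 3.11.15, numpy 2.4.6, pandas 2.3.3 and matplotlib 3.10.9 were used.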

Additional observations from a re-analysis of the deposited data

How the results depend on the processing

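Of 121 alternatives to 9 results, 13 moved a count of regions by over 1.5 times or to or from 0, and 3 reversed the sign of a difference. The window differences were checked for sign only, so a change in their size was not called. Those of 0 at Macf1 and Plcl1 could not reverse. No p fell under 0.05, and none could, since the smallest possible in these exact permutation tests was 0.1. The Akap13 difference at equal length (-6.33) was negative in every alternative run. With 1 library left out it ran from -7.83 to -4.33. The sign could not change there, because every A384T library lay below every WT library. The difference was -3.12 per 1000 listed peaks of the full lists and -5.67 without the second of 2 regions with equal values. With the replicate numbers as blocks the difference was -6.33 with an exact permutation p of 0.25, the smallest 3 pairs allow, so the block could change no call. With 1 library left out the Dock8 difference ran from -1.17 to -0.167, and the Macf1 and Plcl1 differences, 0 at equal length, ran from -0.333 to 0.333 each. The sizes of the Dock8 and Macf1 differences changed with the way the lists were cut. With lists matched in length by order they were -16.7 and -35.3 peaks, and with -log10 q of at least 20 both were 0. Ranked by fold the Macf1 difference was -2.67, and in the full lists it was -3.96 per 1000 listed peaks.

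The 13 regions recurrent in WT became 4 with lists of equal length and 4 with -log10 q of at least 20, and 0 to 41 with 1 library left out. With 1 library of a genotype removed, the class needs both that are left. The count of 0 for A384T became 2 with summits within 200 bp, and 0 to 7 with 1 library left out. The 10 regions in all libraries became 5 at equal length and 10 to 17 with 1 library left out. The 2 shared regions with ranks apart became 0 when ranked by fold, 0 by percentile in the full list, and 2 to 8 with 1 library left out. The Jaccard difference of 7.18 reversed to -7.26 with full lists. It ran from -0.455 to 13.8 with 1 library left out, and was -0.455 without WT replicate 2 and -0.0702 without WT replicate 3. The cause of these changes was not tested, and the shares over all regions were not computed for the alternatives.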

Other observations

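A pair of regions at the right end of the Akap13 window had equal values, and was chosen after its values were seen. Chromosome 7 from 82933403 to 82933778 and chromosome 7 from 82980087 to 82980455 start 46.7 kb apart. Both had a peak in the same 5 libraries. The pileups were 81.0 at both in A384T replicate 1 and 62.5 at both in A384T replicate 2. In WT replicates 1, 2 and 3 they were 104.0 at both, 41.3 at both and 46.0 at both. The folds were equal in 4 of the 5 libraries, at 9.5 and 12.7 in A384T replicates 1 and 2 and at 12.6 and 10.6 in WT replicates 1 and 2, and were 13.2 and 12.8 in WT replicate 3. Whether the sequences at these positions are alike was not tested, and the pair may not stand for separate binding events.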
